A study of Mus musculus with 12 samples.

Results

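The cell cycle and DNA replication genes described here are 40 listed mouse genes, taken by symbol from a list and matched to the Entrez numbers of the deposited tables. All 40 had values at both ages, out of 17665 genes with values in both tables, and all 40 passed the filter on low values in every comparison. By role they fall into 12 genes of DNA replication and nucleotide supply, 20 genes of mitosis, 4 cyclins of the first gap phase (G1) and 4 regulators. Expression was measured by RNA sequencing in epidermis of dorsal skin from C57BL/6 mice, in 12 libraries. Control mice (K14 Cre-/-) and double knockout mice, labelled DKO (K14 Cre+/-), gave 3 libraries each at postnatal day 36 (P36) and 3 each at 6 months. Both genotypes carry floxed alleles of Med1, which encodes a Mediator subunit (Med1 fl/fl), and of the vitamin D receptor gene Vdr (VDR fl/fl), and they differ by the Cre transgene. The keratin 14 promoter drives Cre in basal keratinocytes and the cells that descend from them, so other cells of the peeled tissue keep both genes.

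A dividing cell passes from G1 through DNA synthesis (S phase) to mitosis. Cyclins D and E with their kinases release E2f factors from the retinoblastoma family in G1, and E2f then switches on genes for replication, among them the Mcm helicase, its loaders Cdc6 and Cdt1, the sliding clamp Pcna and the enzymes that make deoxynucleotides. Later in the cycle B-Myb (Mybl2) and Foxm1 switch on genes of mitosis, such as Cdk1 and its cyclins, the Aurora and Polo kinases, the spindle checkpoint and the kinesins, and Cdkn1a encodes p21, an inhibitor of cyclin-dependent kinases. In skin, dividing cells lie mainly in the basal layer of the epidermis, in the matrix of growing hair follicles and in the sebaceous gland, and the follicle matrix divides only during the growth phase of the hair cycle.

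The level of the targeted genes was looked at before the members. Values are FPKM, a level scaled by transcript length and library size. Med1 stood at 13.9, 14.2 and 13.2 FPKM in the P36 control libraries and at 10.4, 8.78 and 8.2 in those labelled DKO (log2 fold change -0.55, SE 0.11, limma adjusted p = 0.0083), and its decrease at 6 months was not called (log2 fold change -0.26, adjusted p = 0.13). For Vdr no decrease was seen. Its level was 65.8, 65.5 and 72.8 FPKM in control and 87.4, 86.7 and 76.5 in DKO at P36, and at 53.5, 31.4 and 36.7 against 49.3, 42.1 and 52.9 at 6 months. The level of Vdr therefore goes against the label, and every direction given for a genotype rests on the label. A gene-level value includes exons outside the floxed part, whose position is not given in the labels. FPKM summed to 446617 to 554382 per library and 12056 to 12760 genes reached 1 FPKM, and the number of reads is unknown.

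The promoters of the replication and mitosis genes differed in the exact short motifs searched. The stretches below are shown because the members whose levels are compared carry these motifs in different combinations. In the RefSeq promoter table (assembly GRCm38.p6), a window of 300 bases, from 250 before to 50 after the start site, was found for 16 mitosis genes and for 11 replication genes (12 windows, since Mcm7 has more than 1 start site). Ccna2, Ccne2, Ccnd1, Ccnd2, Aurkb, Kif20a, Tpx2, Mcm4 and Foxm1 were not matched. The core of the cell cycle homology region (CHR), TTTGAA on either strand, was found in 12 of 16 mitosis windows, in 1 of 12 replication windows (Mcm2) and in 17.9% of all 32851 windows. The E2F core, searched as TTTCCCGC or TTTGGCGC on either strand, was found in 0 of 16 mitosis windows, in 6 of 12 replication windows and in 1.56% of all windows. Only these exact letters were searched. Variants of the E2F core, such as tttcgcgc in the Cdk1 stretch printed below, were not counted, so these shares do not show which promoters lack an E2F site. The CCAAT box, bound by NF-Y, was found on either strand in 15 of 16 mitosis windows, in 9 of 12 replication windows and in 37.4% of all windows, and it can share an end base with a neighbouring CHR core. None of these 3 motifs was found in the windows of Ccne1, Cdkn1a, E2f1 or Mybl2. The 150 bases before the start site are printed 5′ to 3′ on the strand of the gene for 6 members named in the comparisons, with motif matches in capitals. A match describes letters in a window and not a bound site.
Cdk1, chr10:69352913-69353062, minus strand: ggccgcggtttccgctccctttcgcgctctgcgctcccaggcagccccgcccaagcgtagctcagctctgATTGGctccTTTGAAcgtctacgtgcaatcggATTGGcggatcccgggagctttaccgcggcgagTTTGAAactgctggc
Top2a, chr11:99024190-99024339, minus strand: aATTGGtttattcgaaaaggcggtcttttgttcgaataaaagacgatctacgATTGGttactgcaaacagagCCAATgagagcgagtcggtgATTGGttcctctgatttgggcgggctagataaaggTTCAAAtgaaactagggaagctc
Mcm6, chr1:128359706-128359855, minus strand: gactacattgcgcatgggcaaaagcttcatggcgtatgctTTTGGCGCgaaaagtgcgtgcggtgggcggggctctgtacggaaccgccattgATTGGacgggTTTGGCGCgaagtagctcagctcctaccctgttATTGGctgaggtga
Rrm1, chr7:102441545-102441694, plus strand: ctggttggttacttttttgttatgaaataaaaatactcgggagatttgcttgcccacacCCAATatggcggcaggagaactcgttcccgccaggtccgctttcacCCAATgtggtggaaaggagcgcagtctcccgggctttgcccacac
Tyms, chr5:30073626-30073775, minus strand: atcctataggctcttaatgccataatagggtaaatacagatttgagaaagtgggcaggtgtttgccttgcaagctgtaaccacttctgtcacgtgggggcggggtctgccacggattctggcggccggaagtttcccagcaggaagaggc
Mybl2, chr2:163054485-163054634, plus strand: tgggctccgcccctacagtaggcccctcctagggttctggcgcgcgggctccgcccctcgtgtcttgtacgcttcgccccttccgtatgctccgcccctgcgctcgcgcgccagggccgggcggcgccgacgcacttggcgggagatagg
Cdk1 and Top2a, whose products drive entry into mitosis and untangle replicated DNA, carry their nearest CHR cores starting 15 and 23 bases before the start site, together with several CCAAT boxes. Mcm6, a helicase subunit, carries E2F cores starting 110 and 47 bases before it. Of the exact letters searched, Rrm1 carries CCAAT boxes only, and Tyms and Mybl2 carry none. Near matches to the E2F core, such as ttcccgcc in Rrm1 and ttggcggg in Mybl2, were not counted. The search therefore does not show that these promoters lack an E2F site.

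FPKM is scaled by length, so levels can be ordered between genes. Cdkn1a was the most abundant member in the P36 control libraries (301 ± 33.5 FPKM, SD, n = 3), followed by Pcna (99.02 ± 4.10). Ube2c, an enzyme that adds ubiquitin to mitotic targets (66.4 ± 15.2), Ccnd2 (64.9 ± 9.43) and Ccnd1 (43.5 ± 16.4) came next and did not differ beyond their spread. Cdc6 (2.49 ± 0.363 FPKM), Ccne2 (3.08 ± 0.448) and the large centromere proteins Cenpf (3.17 ± 0.716) and Cenpe (3.30 ± 0.542) had the lowest means. Libraries of Ccne2, Cenpf, Cenpe and Bub1 (3.41 ± 0.191, the next higher mean) overlapped, while those of Cdc6 lay wholly below those of Cenpe. At 6 months Cdkn1a (355 ± 52.7) and Pcna (80.5, with libraries between 76.5 and 84.5) were again at the top in control, and Ccne1 (0.900 ± 0.236), Cdc6 (1.04 ± 0.277) and Mybl2 (1.19 ± 0.396) were at the bottom.

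At P36 no replication, mitosis, cyclin or regulator gene passed the test between genotypes. In limma on log2(FPKM + 1), 0 of 40 members were called at an adjusted p below 0.05, against 23.3% of the 12660 genes tested, and 2 of 40 had an unadjusted p below 0.05 (Ccnd2 and Ccne1). The 3 libraries of a group lay wholly above those of the other for 2 members, Pcna and Ccne1, while groups were separate in this way, in either direction, for 39.6% of all genes. The intervals still allow moderate differences: the 95% interval of the log2 fold change ran from -0.44 to 0.50 for Mcm6 and from -0.43 to 0.63 for Mki67.

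Among replication genes at P36, Pcna had the smallest p. Its control libraries stood at 96.0, 104 and 97.4 FPKM and those labelled DKO at 144, 108 and 109, so the groups did not overlap, with replicate 1 of DKO the highest (log2 fold change 0.27, SE 0.12, adjusted p = 0.164). Mcm4 stood at 11.7, 12.1 and 10.3 FPKM in control and 16.1, 11.7 and 12.4 in DKO (log2 fold change 0.21, adjusted p = 0.309). Of the 20 mitosis genes, Cdk1 had the smallest p, with 13.6, 17.2 and 13.5 FPKM in control and 21.6, 18.1 and 15.8 in DKO (log2 fold change 0.30, SE 0.14, adjusted p = 0.175). Cenpa, the histone H3 variant that marks the centromere, stood at 25.5, 30.9 and 24.2 FPKM against 33.3, 30.2 and 28.5 (log2 fold change 0.19, adjusted p = 0.293). Mki67, the gene of the Ki-67 antigen used to count cycling cells, stood at 18.1, 21.4 and 14.5 FPKM in control and 26.6, 13.8 and 19.0 in DKO, with overlapping groups (log2 fold change 0.10, SE 0.23, adjusted p = 0.811). Replicate 1 of the libraries labelled DKO was the highest of the 6 libraries for 28 of the 40 members, 10 of 12 replication genes and 13 of 20 mitosis genes among them. Without control replicate 2, Plk1, a kinase of mitotic entry, passed the threshold (0.47, adjusted p = 0.0291), and no other mitosis gene did.

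The G1 cyclins and the regulators were not called at P36 either. Ccnd2, which encodes cyclin D2, stood at 69.0, 71.5 and 54.1 FPKM in control and 57.6, 39.7 and 41.0 in DKO (log2 fold change -0.49, SE 0.17, adjusted p = 0.067). It passed the threshold without replicate 1 labelled DKO (-0.66, adjusted p = 0.0163) or without control replicate 3 (-0.62, adjusted p = 0.0382), with median-ratio scaling (-0.63, adjusted p = 0.0228) and with a replicate block (-0.49, adjusted p = 0.0473). Ccne1, which encodes cyclin E1, stood at 4.77, 6.07 and 5.33 FPKM against 8.02, 6.58 and 6.21 (log2 fold change 0.31, SE 0.13, adjusted p = 0.132). Ccnd1, which encodes cyclin D1, varied widely within both groups, with 45.9, 58.5 and 26.0 FPKM in control and 58.8, 32.6 and 31.0 in DKO (log2 fold change -0.08, SE 0.32, adjusted p = 0.902). Cdkn1a stood at 285, 279 and 339 FPKM against 238, 265 and 287 (log2 fold change -0.19, adjusted p = 0.306), and E2f1 at 6.24, 7.62 and 6.33 FPKM against 9.38, 7.56 and 6.67 (log2 fold change 0.19, adjusted p = 0.391).

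The median log2 fold change at P36 was 0.05 for the replication genes and 0.14 for the mitosis genes, beside 0.09 over all genes tested. Scaling the libraries by median ratios moved the median of all genes by -0.12. Relative to all genes the replication median stood at -0.04 and the mitosis median at 0.04 under either scaling. All 20 mitosis genes had a log2 fold change above 0 with FPKM as deposited, and 15 of 20 after median-ratio scaling, while the count for replication genes went from 9 to 4 of 12. In the authors' deposited table, 31 of the 40 members had a q-value below 0.05 at P36, beside 69.9% of all 17004 genes with a q-value. Of the 40, 28 were below 0.05 and higher in DKO, beside 47.8% of all genes in the authors' deposited table, and the labels do not name the test behind those values.

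Markers of other cell types moved with genotype at P36, and their part in the members' values was not tested. Of the hair matrix markers 9 of 9 tested fell, with a summed level of 1667 to 2029 FPKM in control and 763 to 1091 in DKO, and inner root sheath markers fell in 8 of 8 cases (23463 to 28852 against 9932 to 13404). Skeletal muscle markers rose in 12 of 12 cases (19.9 to 37.3 against 166 to 719) and macrophage and granulocyte markers in 9 of 11 (60.7 to 123 against 233 to 398). Basal keratinocyte markers rose in 5 and fell in 1 of 10 cases (3193 to 5167 against 5064 to 6686), and sebaceous gland markers rose in 5 of 8 (418 to 536 against 821 to 1050). Among other lists, adipocyte markers rose in 5 of 6 cases, T cell markers in 5 of 7 and endothelium and smooth muscle markers in 6 of 8. Melanocyte markers fell in 4 of 7 cases. Over all genes, 18.0% rose and 5.32% fell. No marker of these lists was at 0 in all libraries of a P36 group. In tissue RNA, fewer cells of a type and less RNA per cell cannot be told apart.

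**Figure D1:**
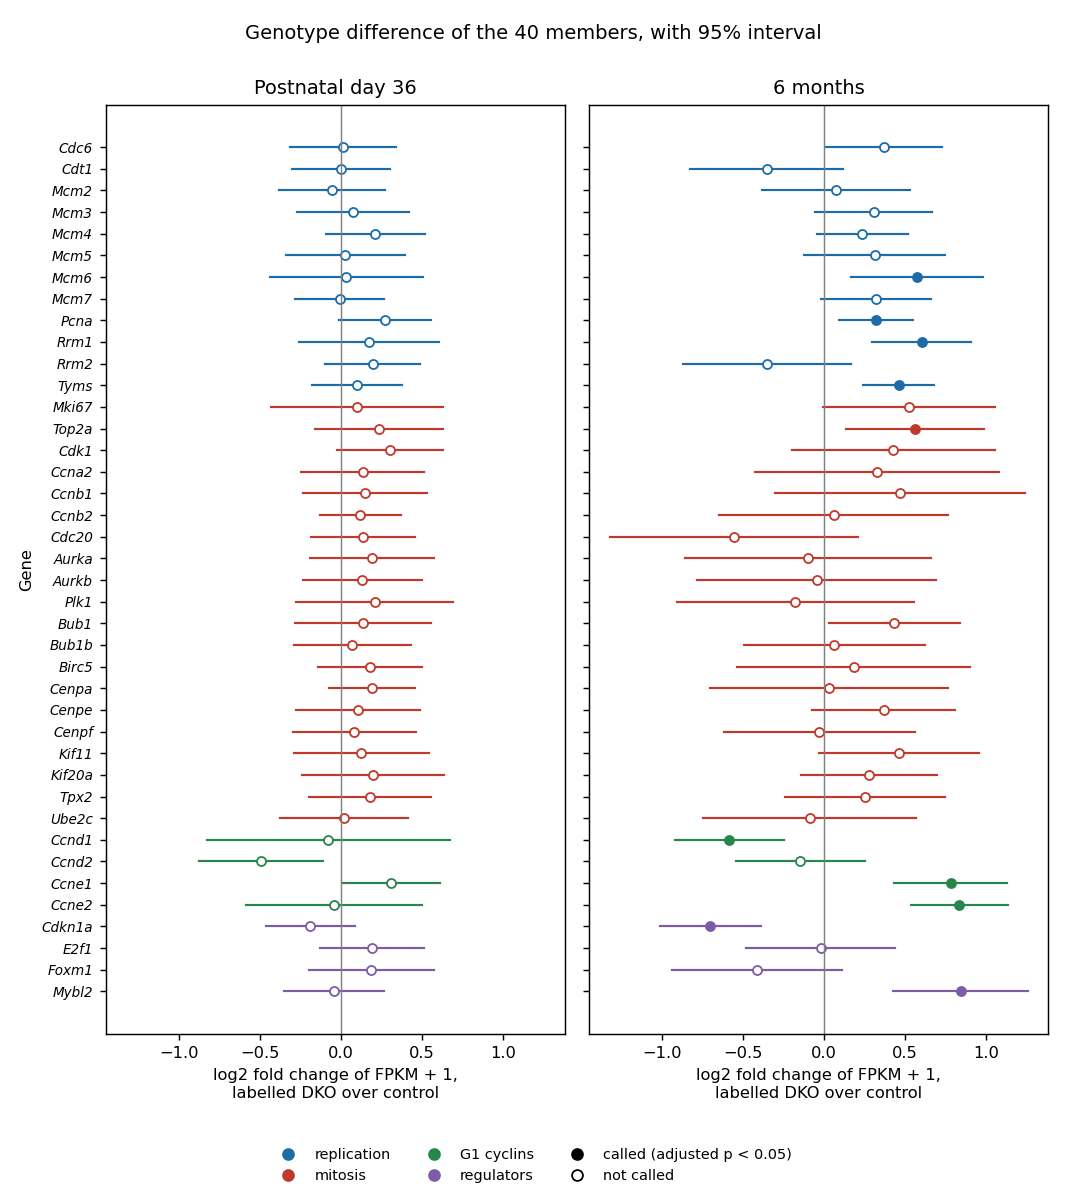
Log2 fold change of FPKM + 1, libraries labelled DKO over control, for each of the 40 members (rows) at P36 (left) and 6 months (right), with the 95% interval from limma as a bar and filled points for genes called at an adjusted p below 0.05. No point is filled at P36, and 10 are at 6 months, 4 of them replication genes, 1 a mitosis gene, 3 G1 cyclins and 2 regulators.

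At 6 months some genes of the G1 to S transition and of DNA synthesis were higher in the libraries labelled DKO, while p21 and cyclin D1 were lower. In limma, 10 of 40 members were called, against 41.3% of the 12594 genes tested. Of these, 8 of 40 rose, against 23.2% of all genes, and 2 of 40 fell, against 18.2%. The members' counts were therefore at or below the background of this comparison. Groups were separate for 18 of 40 members (15 higher, 3 lower in DKO), against 55.7% of all genes. Called members were 4 of 12 replication genes, 1 of 20 mitosis genes, 3 of 4 G1 cyclins and 2 of 4 regulators.

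The replication genes that rose at 6 months supply deoxynucleotides or act at the fork. Tyms, the synthase that makes thymidylate, stood at 13.5, 15.2 and 14.6 FPKM in control and 19.7, 21.1 and 19.8 in DKO (log2 fold change 0.46, SE 0.09, adjusted p = 0.0078). Rrm1, the large subunit of ribonucleotide reductase, stood at 11.5, 15.3 and 14.4 FPKM against 19.8, 23.2 and 20.8 (log2 fold change 0.60, SE 0.13, adjusted p = 0.0099). For both genes every DKO library lay above every control library, and both were called under every alternative in which they were tested. Pcna stood at 76.5, 84.5 and 80.6 FPKM against 91.6, 106 and 104 (log2 fold change 0.32, SE 0.10, adjusted p = 0.035), and Mcm6 at 11.3, 14.4 and 12.3 against 19.99, 23.8 and 15.1 (log2 fold change 0.57, SE 0.17, adjusted p = 0.035).

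The calls of Pcna and Mcm6 depended on the libraries used and on the processing. The Pcna call was lost without control replicate 1, 2 or 3 or without DKO replicate 2 or 3 (log2 fold change 0.28 to 0.35, adjusted p = 0.069 to 0.101), and that of Mcm6 without control replicate 1 or 3 or without DKO replicate 1 or 2 (0.43 to 0.56, adjusted p = 0.090 to 0.102). With library totals taken without keratin and cornified envelope genes, neither passed (Pcna 0.12, adjusted p = 0.313, and Mcm6 0.38, adjusted p = 0.105), and neither did with median-ratio scaling (0.29, adjusted p = 0.075, and 0.55, adjusted p = 0.060). Pcna was also not called with a variance prior without trend (adjusted p = 0.0502) or with a replicate block (adjusted p = 0.054), nor Mcm6 with no filter on low values (adjusted p = 0.054).

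The remaining 8 replication genes were not called at 6 months and did not share a direction. Cdc6 (0.73, 1.27 and 1.11 FPKM in control, 1.60, 1.66 and 1.58 in DKO), Mcm7 (11.8, 16.5 and 16.6 against 19.9, 18.1 and 18.3) and Mcm4 (9.69, 11.01 and 8.44 against 12.3, 11.1 and 11.3) had separate groups with DKO higher, and adjusted p-values of 0.090, 0.115 and 0.154. Mcm2, Mcm3 and Mcm5 had overlapping groups and log2 fold changes of 0.07, 0.31 and 0.31. Cdt1, which loads the Mcm helicase with Cdc6, had separate groups with DKO lower (5.65, 7.36 and 5.78 FPKM against 5.58, 3.22 and 5.5, log2 fold change -0.35, adjusted p = 0.195). Rrm2, the small subunit of ribonucleotide reductase and the partner of Rrm1, stood at 9.34, 17.3 and 14.3 FPKM in control and 10.5, 8.49 and 11.8 in DKO (log2 fold change -0.35, adjusted p = 0.235). The estimates of the 2 subunits of this enzyme thus had opposite signs, 0.60 for Rrm1 and -0.35 for Rrm2.

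Of the 20 mitosis genes only Top2a was called at 6 months. Top2a, a topoisomerase that separates replicated chromosomes, stood at 10.2, 15.4 and 15.3 FPKM in control and 17.5, 20.6 and 23.1 in DKO (log2 fold change 0.56, SE 0.18, adjusted p = 0.042). Its call was lost without any one of the control libraries or without DKO replicate 2 or 3 (log2 fold change 0.38 to 0.66, adjusted p = 0.051 to 0.113), and when keratin and cornified envelope genes were taken out of the totals (0.37, adjusted p = 0.127) or no filter was used (adjusted p = 0.064). Mki67 stood at 8.07, 13.5 and 13.5 FPKM against 13.98, 16.1 and 21.2 and missed the threshold although its groups did not overlap (log2 fold change 0.52, SE 0.23, adjusted p = 0.101). Bub1, a kinase of the spindle checkpoint, the spindle kinesin Kif11 and the kinetochore motor Cenpe also had separate groups with DKO higher (log2 fold changes 0.43, 0.46 and 0.37, adjusted p = 0.081, 0.117 and 0.157).

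The other mitosis genes at 6 months had overlapping groups, with log2 fold changes between -0.56 and 0.47. Cdc20, which activates the anaphase-promoting complex, had the lowest estimate, with 5.84, 15.7 and 12.5 FPKM in control and 7.22, 5.30 and 8.32 in DKO (SE 0.33, adjusted p = 0.209). Ccnb1, which encodes cyclin B1, had the highest estimate among them, with 4.47, 12.7 and 9.92 FPKM against 11.7, 9.98 and 14.5 (SE 0.33, adjusted p = 0.287). Cdk1 stood at 2.58, 6.11 and 5.68 FPKM against 5.82, 5.99 and 7.67 (log2 fold change 0.43, adjusted p = 0.236). In Cdc20, Ccnb1 and Cdk1 alike, control replicate 1 held the lowest or second lowest value of the 6 libraries.

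The cyclins of G1 divided at 6 months, with cyclin E higher and cyclin D1 lower. Ccne2, which encodes cyclin E2, stood at 2.06, 2.56 and 2.43 FPKM in control and 4.66, 5.53 and 4.72 in DKO (log2 fold change 0.83, SE 0.13, adjusted p = 0.0026). Ccne1 stood at 0.87, 1.15 and 0.68 FPKM against 2.29, 2.06 and 2.40 (log2 fold change 0.78, SE 0.15, adjusted p = 0.0059), and the pseudocount of 1 FPKM shrinks a change at this level. Both cyclin E genes had separate groups and were called under every alternative in which they were tested. Neither was tested with a filter of 5 FPKM. Only control replicate 2 of Ccne1 reached the filter of 1 FPKM, so Ccne1 passed it only through the DKO libraries, where it was high. With no filter Ccne1 was called as well (limma adjusted p = 0.0064). Ccnd1 stood at 30.4, 34.2 and 33.8 FPKM in control and 22.4, 17.5 and 25.3 in DKO (log2 fold change -0.59, SE 0.14, adjusted p = 0.015), and it lost its call without control replicate 2 or 3 (adjusted p = 0.052 and 0.051) and when both ages were fitted together (adjusted p = 0.113). Ccnd2 stood at 61.0, 40.4 and 45.2 FPKM against 44.1, 37.8 and 48.8 (log2 fold change -0.15, adjusted p = 0.513).

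Among the regulators at 6 months, Mybl2 rose and Cdkn1a fell. Mybl2, the B-Myb factor, stood at 0.78, 1.57 and 1.23 FPKM in control and 2.97, 2.47 and 3.26 in DKO (log2 fold change 0.84, SE 0.18, adjusted p = 0.0088). Cdkn1a stood at 414, 337 and 313 FPKM against 232, 196 and 221 (log2 fold change -0.70, SE 0.13, adjusted p = 0.0059). Groups were separate for both, and both were called under every alternative in which they were tested. Control replicate 1 of Mybl2 lay below the filter of 1 FPKM, so Mybl2 passed it only with the DKO libraries, where it was high. With no filter Mybl2 was called as well (limma adjusted p = 0.014), and it was not tested with a filter of 5 FPKM. E2f1 (3.91 ± 1.28 against 3.74 ± 0.390 FPKM, SD, n = 3) and Foxm1 (5.89 ± 1.56 against 4.15 ± 1.14) were not called, with log2 fold changes of -0.02 and -0.42 and adjusted p-values of 0.934 and 0.174. In the authors' deposited table, 35 of the 40 members had a q-value below 0.05 at 6 months, beside 80.6% of all 16902 genes with one, and 23 of the 40 were below 0.05 and higher in DKO, beside 42.0% of all genes.

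**Figure D2:**
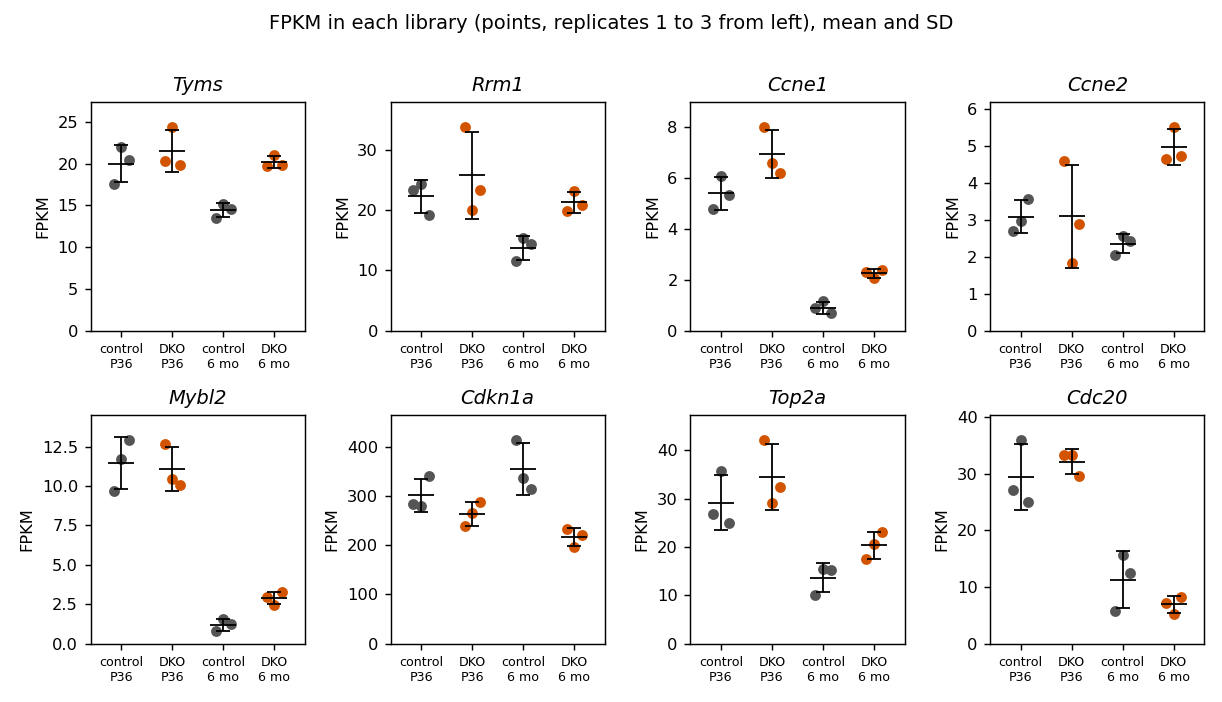
FPKM of 8 members in each of the 12 libraries (points, replicates 1 to 3 from left to right within a group), with the group mean as a bar and the SD (n = 3) as whiskers; grey points are control and orange points are libraries labelled DKO. At 6 months the DKO points of Tyms, Rrm1, Ccne1, Ccne2 and Mybl2 lie above all control points and those of Cdkn1a below them, while those of Cdc20 overlap with control.

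Several cell type markers differed between genotypes at 6 months, and their part in these results was not tested. Of 10 basal keratinocyte markers, 8 fell, with a summed level of 6443 to 7939 FPKM in control and 3941 to 4767 in DKO. Bulge and outer root sheath markers fell in 5 of 8 cases (408 to 573 against 151 to 366), and sebaceous gland markers rose in 5 of 8 and fell in 1 (517 to 609 against 1761 to 1876). Of the hair matrix markers 3 of 7 tested fell, from a summed level of 125 to 241 FPKM to 89.0 to 117, with Shh at 0 in every DKO library. Among other lists, red blood cell markers rose in 4 of 5 cases and endothelium and smooth muscle markers fell in 4 of 8. Suprabasal keratinocyte markers fell in 4 and rose in 1 of 7 cases. Macrophage and granulocyte markers had a summed level of 90.7 to 131 FPKM in control and 304 to 686 in DKO, and 2 of 11 rose and 1 fell. The called genes of this list were S100a8, S100a9 and Csf1r, and the other 8 were not called, so the sum does not describe the list as a whole. Over all genes, 23.2% rose and 18.2% fell.

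Replication and mitosis genes were set side by side by their mean log2(FPKM + 1) in each library. The replication mean was 3.30, 3.68 and 3.43 in the 6-month control libraries and 3.76, 3.64 and 3.73 in those labelled DKO. The mitosis mean was 2.30, 3.21 and 3.13 in control and 2.92, 2.94 and 3.30 in DKO. The DKO libraries lay close together for the replication genes, and the spread of the control libraries was widest for the mitosis genes. DKO minus control was 0.24 for the replication genes and 0.17 for the mitosis genes, and the gap between the subsets was 0.07 larger in DKO, which is less than its SD within groups (0.36 in control, 0.21 in DKO). At P36 the corresponding differences were 0.09 for replication, 0.15 for mitosis and -0.06 for the gap. No p is given, since members are not replicates. The 6-month median log2 fold change was 0.31 for replication and 0.22 for mitosis genes, beside 0.04 over all genes. Taking totals without keratin and cornified envelope genes moved the median of all genes by -0.18 and left the subsets 0.26 and 0.17 above it.

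Replicate 1 of the 6-month control group stood apart in the mitosis genes. All 20 mitosis genes were lower in it than the mean of the other two control libraries, at 0.367 to 0.660 of that mean (median 0.454), and it held the lowest value of the 6 libraries for 19 of the 20. The 12 replication genes were also below that mean, at 0.592 to 0.996 (median 0.834). Without this library, DKO minus control was 0.15 for the replication genes and -0.12 for the mitosis genes, so the sign for mitosis turned and the gap between the subsets rose from 0.07 to 0.27. Without it, 9 members were called, with Cdc20 (-0.93, adjusted p = 0.0144) and Rrm2 (-0.58, adjusted p = 0.0315) lower and with Top2a, Pcna and Mcm6 no longer called. Ccne1, Ccne2, Ccnd1, Mybl2, Cdkn1a, Rrm1 and Tyms were called with and without it.

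**Figure D3:**
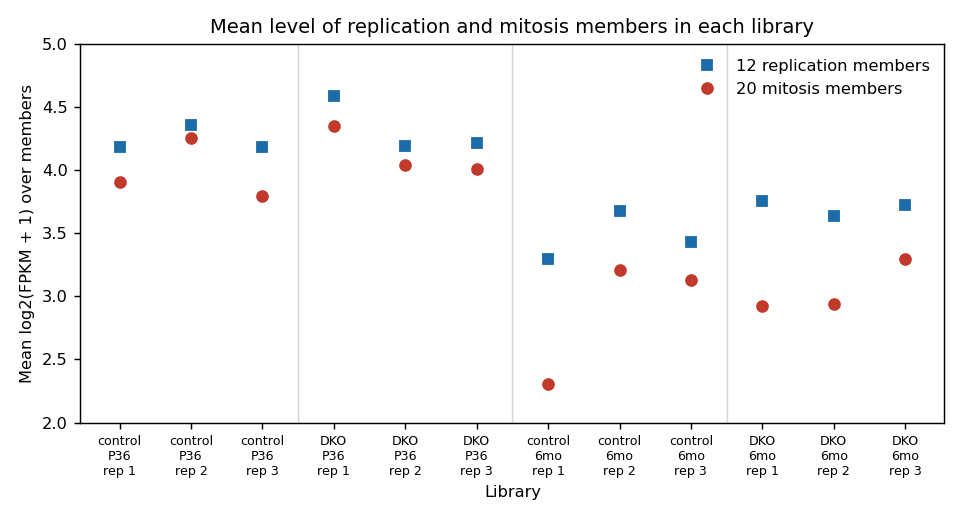
Mean log2(FPKM + 1) over the 12 replication genes (squares) and the 20 mitosis genes (circles) in each of the 12 libraries, grouped by genotype and age; the axis starts at 2. Both means are lower at 6 months, and the lowest circle, at 2.30, is replicate 1 of the 6-month control group.

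The genotype effect differed between the ages for 3 of 40 members, against 34.9% of the 13280 genes with a test of this difference on all 12 libraries. Mybl2 differed by 0.89 (SE 0.22, limma adjusted p = 0.011): at P36 it stood at 9.72, 11.7 and 12.9 FPKM in control and 12.7, 10.4 and 10.1 in DKO, without separation. Ccne2 differed by 0.88 (SE 0.29, adjusted p = 0.034), with 2.71, 2.96 and 3.58 FPKM in control and 4.59, 1.82 and 2.89 in DKO at P36. Cdkn1a differed by -0.51 (SE 0.18, adjusted p = 0.043). Mybl2 passed under all 19 alternatives, Ccne2 under 8 of 18 and Cdkn1a under 8 of 19. Ccne2 lost its call, among others, without 6-month control replicate 1 or 3 (adjusted p = 0.066 and 0.056).

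No replication and no mitosis gene was called for this difference. Tyms came nearest among replication genes (0.36, SE 0.15, adjusted p = 0.085), followed by Rrm2 (-0.55, SE 0.27, adjusted p = 0.140), and 1 of 12 had an unadjusted p below 0.05. Cdc20 (-0.69, SE 0.39, adjusted p = 0.184) and Top2a (0.32, SE 0.27, adjusted p = 0.376) had the smallest p among the 20 mitosis genes, of which 0 had an unadjusted p below 0.05. Without replicate 1 of the 6-month control group, 5 members were called: Mybl2, Cenpa, Foxm1, Cdc20 (-1.07, adjusted p = 0.0093) and Rrm2 (-0.78, adjusted p = 0.0178). Without replicate 1 of the P36 libraries labelled DKO, 6 were called, among them Rrm1 (0.64, adjusted p = 0.0295) and Mcm6 (0.80, adjusted p = 0.0202). Median-ratio scaling moved the median of all genes in this comparison by 0.15. It changed the share of higher calls over all genes from 39.5% to 54.7%, and totals without keratin and cornified envelope genes changed it to 26.8%. Median-ratio scaling added Tyms and Ccne1 to the called members and removed Cdkn1a, and the totals without keratin genes removed Ccne2.

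Most replication and mitosis genes were lower at 6 months than at P36 in control epidermis. In control, 33 of 40 members fell and 0 rose, against 27.9% of the 13280 genes falling. These were 18 of 20 mitosis genes, 11 of 12 replication genes, 3 of 4 regulators and 1 of 4 G1 cyclins, and 29 of the 33 were called under every alternative in which they were tested. The median log2 fold change was -1.14 for mitosis and -0.72 for replication genes, beside 0.10 over all genes. The ages lie in separate tables whose libraries were each scaled on their own, so that age and table cannot be told apart.

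Mybl2 showed the largest drop in control, from 11.5 ± 1.63 to 1.19 ± 0.396 FPKM (SD, n = 3; log2 fold change -2.51, SE 0.16, adjusted p = 1.4e-07). Ccne1 went from 5.39 ± 0.652 to 0.900 ± 0.236 FPKM (-1.75, adjusted p = 5.8e-07), and Mcm5, a helicase subunit, from 20.6 ± 2.14 to 6.13 ± 1.69 (-1.62, adjusted p = 1.5e-05). Among mitosis genes, Cdk1 went from 14.8 ± 2.14 to 4.79 ± 1.93 FPKM (-1.50), Birc5, the chromosomal passenger protein survivin, from 30.8 ± 5.32 to 10.2 ± 3.92 (-1.57), the cyclin gene Ccnb2 from 21.4 ± 2.49 to 7.39 ± 2.99 (-1.48) and the checkpoint kinase gene Bub1b from 11.3 ± 2.32 to 4.14 ± 1.47 (-1.29). Each of these 4 had separate groups and a limma adjusted p between 0.00015 and 0.00028. Mcm7, Mcm2 and Mcm3 fell by 1.07, 1.22 and 1.06 on the log2 scale.

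Not all members fell with age in control. Mcm4 (11.3 ± 0.923 against 9.71 ± 1.29 FPKM, adjusted p = 0.182), Cenpf (3.17 ± 0.716 against 2.68 ± 1.13, adjusted p = 0.415) and Mki67 (18.0 ± 3.46 against 11.7 ± 3.15, adjusted p = 0.056) were not called, although the groups of Mki67 did not overlap. Pcna fell by 0.30 (adjusted p = 0.036), from 99.02 ± 4.10 FPKM to 76.5, 84.5 and 80.6, and lost its call without any one of the P36 control libraries or without 6-month control replicate 1 or 3, without keratin and cornified envelope genes in the totals and with a replicate block (adjusted p = 0.055 to 0.265). Cdkn1a was the only member with an estimate above 0 (0.23, SE 0.13, adjusted p = 0.129). The cyclin genes Ccnd1, Ccnd2 and Ccne2 were not called (log2 fold changes -0.32, -0.41 and -0.28).

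In the libraries labelled DKO, 28 of 40 members were lower at 6 months than at P36, against 32.0% of all genes, and 1 was higher. The falls covered 16 of 20 mitosis genes, 7 of 12 replication genes, 2 of 4 G1 cyclins and 3 of 4 regulators. Cdc20 went from 32.1 ± 2.21 to 6.95 ± 1.53 FPKM (SD, n = 3; log2 fold change -2.07, SE 0.27, adjusted p = 7.6e-05). Cenpa went from 30.7 ± 2.44 to 9.01 ± 1.39 FPKM (-1.67), Ccnb2 from 23.3 ± 1.58 to 7.42 ± 1.85 (-1.55) and Aurkb, the kinase of the chromosomal passenger complex, from 17.4 ± 1.40 to 4.78 ± 0.740 (-1.68). Mcm5, Rrm2, Mcm2 and Mcm7 fell by 1.34, 1.37, 1.09 and 0.74, and Mybl2, Foxm1 and E2f1 by 1.63, 1.35 and 0.90.

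The replication genes Tyms, Rrm1, Mcm6, Mcm4 and Pcna were not called with age in DKO, with log2 fold changes between -0.25 and -0.08. Rrm1, for example, stood at 33.8, 19.96 and 23.4 FPKM at P36 and at 19.8, 23.2 and 20.8 at 6 months. Mki67 likewise stood at 26.6, 13.8 and 19.0 FPKM against 13.98, 16.1 and 21.2 (-0.17, SE 0.25, adjusted p = 0.576). Ccne1 fell by 1.28 and Ccnd1 by 0.83 (adjusted p = 0.025), and Ccne2 rose by 0.60 (SE 0.20, adjusted p = 0.025), from 3.10 ± 1.40 to 4.97 ± 0.486 FPKM. Ccnd1 lost its call without P36 DKO replicate 1 or 6-month DKO replicate 2, and Ccne2 without P36 DKO replicate 2 or 3 or 6-month DKO replicate 2. That a gene was called with age in control and not in DKO does not show that the genotypes differ. The test of that difference is the test between ages given above.

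Markers of the growing hair follicle fell with age as well, and their part in the members' changes was not tested. In control, 9 of 9 hair matrix markers fell, from a summed level of 1667 to 2029 FPKM to 125 to 241. Inner root sheath markers fell in 7 of 8 cases, from 23463 to 28852 FPKM to 89.4 to 223, with Krt72 at 0 in every 6-month control library. Basal keratinocyte markers rose in 9 of 10 cases in control, from 3193 to 5167 FPKM to 6443 to 7939. In DKO, hair matrix markers fell in 9 of 9 cases (763 to 1091 against 89.0 to 117), inner root sheath markers in 7 of 8 (9932 to 13404 against 39.5 to 66.1) and skeletal muscle markers in 12 of 12 (166 to 719 against 14.97 to 182). Basal keratinocyte markers rose in 2 and fell in 2 of 10 cases in DKO. Among other lists in control, suprabasal keratinocyte markers rose in 7 of 7 cases and T cell markers in 6 of 7, while melanocyte markers fell in 7 of 7. In DKO, melanocyte markers fell in 7 of 7 cases and dermal fibroblast markers in 6 of 8, while T cell markers rose in 6 and fell in 1 of 7. Of all 13280 genes, 27.9% fell and 4682 rose in control, and 32.0% fell and 3716 rose in DKO.

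**Figure D4:**
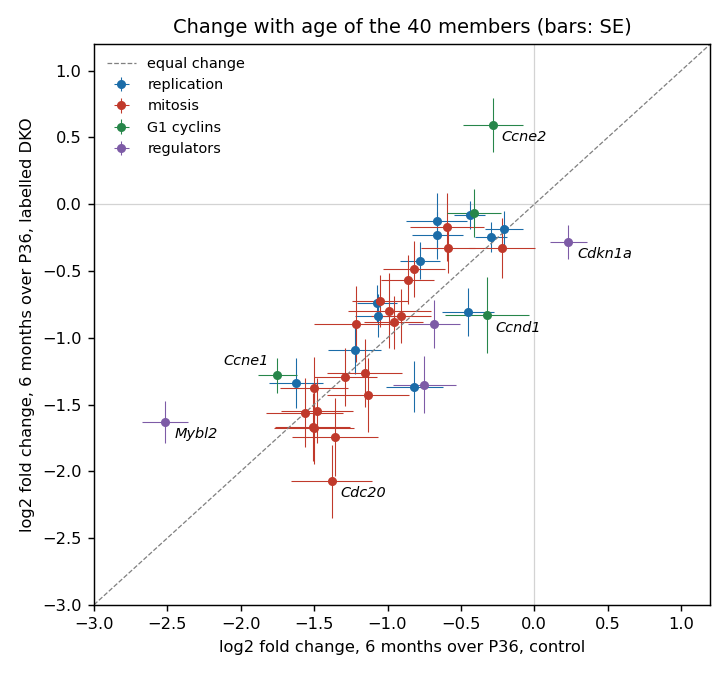
Log2 fold change from P36 to 6 months in control (horizontal) and in the libraries labelled DKO (vertical) for each of the 40 members, with SE bars from limma; the dashed line marks an equal change. Most points lie in the lower left, Mybl2 lies at -2.51 in control and -1.63 in DKO, and Ccne2 lies above 0 in DKO.

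Further genes of the same pathways were counted by list. Of 38 other replication genes, 0 were called at P36 (2 with an unadjusted p below 0.05), beside 23.3% of all genes. At 6 months 13 rose and 0 fell, beside 23.2% of all genes higher and 18.2% lower. Hells, a chromatin remodeller, stood at 3.66, 4.28 and 3.34 FPKM in 6-month control and 7.56, 8.63 and 8.40 in DKO (log2 fold change 0.95, SE 0.12, adjusted p = 0.0015). Gins1, a subunit of the helicase complex, stood at 2.96, 2.81 and 2.97 FPKM against 5.26, 5.85 and 5.97 (0.77, adjusted p = 0.0021), and Gmnn, the inhibitor of Cdt1, at 4.90, 7.65 and 6.42 against 10.9, 11.8 and 12.2 (0.80, adjusted p = 0.0062). The others that rose included Rpa3, Pola1, Prim2, Mcm10, Dtl, Rfc4, Gins4, Prim1 and Orc1. The count was 8 without control replicate 1 or without DKO replicate 2. The difference between ages was called for 4 of 38 (Hells, Gins1, Gmnn and Mcm10), below the 34.9% of all genes. That of Gmnn was lost without single libraries and without keratin and cornified envelope genes in the totals (adjusted p = 0.054 to 0.067). With age 26 of 38 fell in control, against 27.9% of all genes. In DKO 21 fell, against 32.0%, and 2 rose, against 3716 of 13280 genes.

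Of 52 other mitotic genes, 1 rose at P36, the cytokinesis protein gene Anln (5.73, 6.90 and 4.91 FPKM against 10.2, 7.95 and 10.1, log2 fold change 0.61, adjusted p = 0.019), beside 18.0% of all genes higher. Anln lost its call without control replicate 1 or DKO replicate 1 or 3, without keratin and cornified envelope genes in the totals and when both ages were fitted together (adjusted p = 0.050 to 0.080). At 6 months 4 rose (Smc2, Kif15, Cks1b and Mad2l1) and 3 fell (Cdc25b, Espl1 and Kif23), so that 7 of 52 were called, below the 41.3% of all genes. The count of 7 became 12 without control replicate 1, 3 without DKO replicate 2 and 4 without DKO replicate 3. Cdc25b, a phosphatase that activates Cdk1, stood at 15.5, 29.1 and 23.8 FPKM in control and 9.65, 8.02 and 11.5 in DKO (-1.12, SE 0.23, adjusted p = 0.0086). Espl1, which encodes separase, stood at 4.25, 3.89 and 3.53 FPKM against 2.23, 1.75 and 2.57 (-0.62, adjusted p = 0.013), and Smc2, a condensin subunit, at 3.33, 4.86 and 4.53 against 6.74, 6.39 and 7.66 (0.61, adjusted p = 0.016). The difference between ages was called for 4 of 52 (Cdc25b, Anln, Ttk and Espl1), below the 34.9% of all genes. All 4 were negative, and over all genes 2804 of the 4631 calls were negative too. That of Anln was lost without single libraries (adjusted p = 0.058 to 0.073). With age 29 of 52 fell in control and 29 fell in DKO, against 27.9% and 32.0% of all genes. In control 3 of 52 rose and in DKO 0, against 4682 and 3716 of 13280 genes.

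Of 8 kinases and drivers of G1, Ccnd3 and Cdk6 rose and Mycn fell at P36. These were 3 of 8, beside 23.3% of all genes called. At 6 months Skp2 rose while Cdk2, Cdc25a and Ccnd3 fell, 4 of 7 tested, beside 41.3% of all genes called. Lists this short do not show whether such shares differ from those of all genes, and that was not tested. Ccnd3, which encodes cyclin D3, stood at 18.5, 28.7 and 24.8 FPKM in P36 control and 39.1, 45.6 and 38.5 in DKO (log2 fold change 0.77, adjusted p = 0.010), and at 31.6, 39.3 and 35.6 against 26.0, 17.9 and 27.1 at 6 months (-0.58, adjusted p = 0.031). The difference between ages was -1.35 (SE 0.25, adjusted p = 0.0022). Skp2, which marks Cdk inhibitors for destruction, stood at 1.27, 2.62 and 2.09 FPKM against 6.13, 5.13 and 4.73 at 6 months (1.10, SE 0.19, adjusted p = 0.0046). Mycn, a Myc factor of the hair matrix, stood at 20.6, 25.1 and 20.3 FPKM against 14.1, 8.63 and 10.6 at P36 (-0.95, adjusted p = 0.0060) and at a mean of 0.643 FPKM in control and 0.493 in DKO at 6 months. Cdk4 fell with age in both genotypes (-1.26 in control and -0.79 in DKO). The 6-month calls of Cdk2 and Cdc25a were lost without single libraries (adjusted p = 0.056 to 0.089), and that of Cdc25a also with no filter and with a replicate block (adjusted p = 0.052 for both).

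Of the other Cdk inhibitors, Cdkn2a rose at 6 months, the only 1 of 6 called, beside 41.3% of all genes. It stood at 0.23, 0.13 and 0.13 FPKM in control and 5.51, 2.26 and 4.33 in DKO (log2 fold change 2.06, SE 0.25, adjusted p = 0.0013). No control library reached the filter of 1 FPKM, so Cdkn2a entered this fit only through the DKO libraries, where it was high. With control at this level, only a rise could have been tested under that filter. Cdkn2a encodes p16Ink4a and p19Arf from overlapping transcripts, which a gene-level value cannot separate. At P36 its values were 0.07, 0.12 and 0.06 FPKM in control and 0.59, 0.50 and 0.43 in DKO, below the filter. The difference between ages was 1.58 (SE 0.29, adjusted p = 0.0019), and the 6-month DKO libraries alone carried the gene into that fit too. Cdkn2b, which encodes p15Ink4b, and Cdkn2d rose at P36 (10.8, 10.2 and 14.4 FPKM against 19.8, 18.0 and 18.8, with a log2 fold change of 0.65 and adjusted p = 0.010, and 13.7, 14.03 and 11.7 against 18.1, 18.9 and 18.7, log2 fold change 0.47, adjusted p = 0.010). These were 2 of 5 tested at P36, beside 23.3% of all genes called, and they were not called at 6 months.

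Of 16 genes of the Rb, E2f and DREAM group, 0 were called at P36, beside 23.3% of all genes. An unadjusted p below 0.05 was found for 2, smallest for E2f3 (log2 fold change -0.36, adjusted p = 0.058). At 6 months 4 rose and 0 fell, beside 23.2% of all genes higher and 18.2% lower. The share that rose was thus near that of all genes. E2f3 stood at 2.14, 2.69 and 1.70 FPKM in 6-month control and 4.46, 3.86 and 4.91 in DKO (0.78, SE 0.16, adjusted p = 0.0078). Lin9, a subunit of the complex that carries B-Myb, stood at 1.65, 2.97 and 2.78 FPKM against 5.03, 5.34 and 4.96 (0.84, SE 0.17, adjusted p = 0.0085), and Tfdp1, the partner of E2f factors, at 25.3, 30.7 and 25.0 against 38.9, 39.2 and 37.2 (0.50, adjusted p = 0.0096). The fourth was E2f7. Of these, E2f3, Lin9 and Tfdp1 also differed between ages (1.14, 0.99 and 0.50, adjusted p = 0.0014, 0.0086 and 0.032), and that of Tfdp1 was lost without single libraries (adjusted p = 0.051 to 0.080) and without keratin and cornified envelope genes in the totals (0.36, adjusted p = 0.124), where its 6-month call was lost too (0.30, adjusted p = 0.058). E2f3 also passed at P36 without P36 DKO replicate 1 (-0.45, adjusted p = 0.035) and with median-ratio scaling (-0.49, adjusted p = 0.013). E2f3 fell with age in both genotypes, by 1.87 in control and by 0.73 in DKO. In this group the difference between ages was called for 4 of 16 (E2f3, Lin9, Tfdp1 and E2f2), beside 34.9% of all genes.

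Genes activated by p53, of which Cdkn1a is another, did not move in a shared direction. At P36, 2 of 17 tested rose and 3 fell, beside 18.0% of all genes higher and 5.32% lower: Aen, Plk3 and Trp53inp1 fell by 0.49, 0.43 and 0.48, and Fas and Ccng1 rose. At 6 months 5 of 18 rose (Pmaip1, Plk2, Eda2r, Ccng1 and Gadd45a) and 2 fell (Fas and Sesn2), beside 23.2% of all genes higher and 18.2% lower, so that both counts were near the background. Pmaip1, which encodes the cell death protein Noxa, stood at 5.93, 4.87 and 3.41 FPKM in control and 13.9, 13.9 and 14.4 in DKO (log2 fold change 1.42, SE 0.17, adjusted p = 0.0012). Plk2 stood at 16.7, 20.2 and 14.7 FPKM against 32.8, 32.4 and 41.1 (1.00, adjusted p = 0.0024), and the receptor gene Eda2r at 1.05, 0.65 and 0.99 against 2.74, 2.29 and 3.42 (1.00, adjusted p = 0.0036). Only control replicate 1 of Eda2r reached the filter of 1 FPKM, so Eda2r entered this fit only through the DKO libraries, where it was high. The 5 were named for their rise, so they cannot show whether the list shared the decrease of Cdkn1a at 6 months. Fas and Sesn2 fell as Cdkn1a did, and 11 of 18 were not called.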

How the data were processed

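The 12 libraries were grouped by the genotype and age in their labels, 3 per group. Nothing in the labels says that the replicates of a group came from different mice. The p-values therefore describe only how these samples spread, which may be technical. The authors deposited 1 table per age with FPKM per gene and library, and with their log2 ratio of DKO over control, p-value and q-value, per the file headers. Those tables name genes by Entrez number, and the age of a table comes from its name. The tools named in the submitters' processing notes include RSEM 1.2.8 and HISAT2 2.1.0, and the notes name human builds (GRCh38, hg38) for these mouse samples. The annotation, the use of strand in counting and the handling of reads shared with pseudogenes are not given in the sources used here. The deposited FPKM values hold no read counts, so depth is unknown and no counting interval is given.

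Of the gene numbers with values, 19343 of 19392 at P36 and 17712 of 17750 at 6 months found a symbol in the RefSeq genes of GRCm38.p6. All coordinates come from the RefSeq promoter table of that build. Of the marker lists, Krt85 was not matched, and Flg and Trdc had no values.

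In R 4.3.3, limma 3.58.1 with a variance trend was fitted to log2(FPKM + 1) for every gene that reached 1 FPKM in 3 or more of the libraries fitted, with Benjamini-Hochberg adjustment over all genes and a threshold of 0.05. Such fold changes understate those of low genes. Each age was fitted on its 6 libraries. Age effects and the difference between ages were fitted on all 12. The fit was also run on simulated data, with planted changes larger than any genotype estimate of a member in the main fits. That run therefore does not describe how well changes of the members' size are found.

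The members and lists were chosen with earlier results of these data known. Values are given, per comparison, for up to 4 called members of each subset with the smallest adjusted p (2 by p where none was called), up to 3 called genes of each list (1 by p where none was called), and always for Cdkn1a, Mki67, Pcna, Ccnd1, Vdr and Med1. Other members and genes named with values were chosen after their values were seen. Alternatives were a pseudocount of 0.1, no filter and a filter of 5 FPKM, median-ratio scaling, totals without keratin and cornified envelope genes, a variance prior without trend, a replicate block, a joint fit of 12 libraries for the genotype comparisons, and leaving out each library. Promoter windows are those of a RefSeq table, searched for exact matches.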

Additional observations from a re-analysis of the deposited data

Results flagged for a closer look

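The genotype effect of 3 members differed between the ages by limma's test of that difference on all 12 libraries. Mybl2 differed by 0.8855 on the log2(FPKM + 1) scale (adjusted p = 0.011), with log2 fold changes of -0.04 at P36 and 0.84 at 6 months. Ccne2 differed by 0.8781 (adjusted p = 0.034), with -0.04 and 0.83. Cdkn1a differed by -0.5142 (adjusted p = 0.043), with -0.19 and -0.70. Over all alternatives, the adjusted p ranged from 0.0038 to 0.033 for Mybl2, from 0.0036 to 0.079 for Ccne2 and from 0.016 to 0.210 for Cdkn1a.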

How the results depend on the processing

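At P36, 1 of 40 members (Ccnd2) was called with median-ratio scaling and with a replicate block, and 0 to 1 when leaving out each library. At 6 months the count was 10 and ranged from 6 to 9 when leaving out each library, with 6 without control replicate 3. Ccne1, Ccne2, Cdkn1a, Mybl2, Rrm1 and Tyms were called under every alternative in which they were tested. Ccne1, Ccne2 and Mybl2 were not tested at 6 months with a filter of 5 FPKM. For the difference between ages the count was 3, was 1 with no filter on low values, and ranged from 1 to 6 when leaving out each library. The age counts stayed between 30 and 36 of 40 in control and between 24 and 31 in DKO. The gap between replication and mitosis genes, DKO minus control, was -0.0637 at P36, -0.1761 with the median over members in place of the mean, and between -0.1398 and 0.0023 when leaving out each library. At 6 months it was 0.0675, ranged from -0.0747 to 0.2693 when leaving out each library, and was -0.1512 with the median over members. No called value changed sign under any alternative run.

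Over all genes, 2949 were called at P36, and 1662 and 1697 without DKO replicate 2 or 3. The share of higher calls was 77.1% at P36 and 58.9% with median-ratio scaling, 56.0% at 6 months and 34.8% without keratin and cornified envelope genes in the totals. Deviations of same-numbered libraries correlated, across genes, at 0.135, -0.058 and -0.115 at P36 and at -0.063, 0.032 and 0.183 at 6 months. Those of differently numbered libraries ran from -0.206 to 0.206 at P36 and from -0.202 to 0.234 at 6 months. With 3 libraries a group, these values cannot show whether same-numbered samples were linked. The replicate block gave 1 called member at P36, 11 at 6 months (Mki67 and Kif11 gained, Pcna lost), 3 for the difference between ages, and 33 and 30 with age. With 3 libraries a group, no difference in the gap between subsets could be told from the spread of single libraries.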

Other observations

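Histone genes that are transcribed with DNA replication, a list of 53 added after the values were seen, had a summed level of 464, 625 and 459 FPKM in the P36 control libraries and 679, 555 and 494 in those labelled DKO. At 6 months the sum was 89.0, 191 and 302 FPKM in control and 306, 344 and 396.5 in DKO. Every DKO library lay above every control library, but narrowly, with 301.9 in control replicate 3 and 305.9 in DKO replicate 1. Groups were separate in this way, in either direction, for 55.7% of all genes. The gene H2ac24 made up a large share, with 28.0, 95.5 and 183 FPKM in 6-month control and 129, 150 and 171 in DKO, and its groups overlapped. H2bc4 had separate groups, with 19.9, 32.2 and 29.5 FPKM in 6-month control and 62.0, 66.3 and 71.5 in DKO. So did H2ac18 (11.65, 18.4 and 16.7 against 44.5, 43.9 and 53.4) and H1f2, while H2aw overlapped. Histone genes of this list are near-identical copies whose reads can be split between them, and many of their transcripts have no poly(A) tail.

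Replicate 1 of the 6-month control group also stood apart in other lists. The p53-activated genes Btg2 (293 FPKM against 40.5 and 45.4 in replicates 2 and 3) and Trp53inp1 (151 against 14.8 and 33.9) and the growth factor response gene Myc (108 against 36.8 and 49.5) were higher in it, and these genes were chosen after their values were seen.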
